A study of Homo sapiens with 6 samples.

Results

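The 8 metallothionein genes MT1A, MT1E, MT1F, MT1G, MT1H, MT1M, MT1X and MT2A, the zinc sensor gene MTF1 and the zinc exporter gene SLC30A1 were examined in HepG2 cells. They were taken by symbol from a list, without a cut on their values. The list was chosen with earlier results of these data known. All 10 were found among the 59608 genes of the count table. The 6 RNA-seq libraries fell into 2 groups, VEZF1-WT and VEZF1-2A, with 3 libraries each. The HepG2 line was derived long ago from a human liver tumour, and in all 6 libraries its own VEZF1, a zinc finger transcription factor, had been silenced by a guide RNA delivered with lentivirus. VEZF1-WT libraries then received the wild-type protein. VEZF1-2A libraries received a form in which neighbouring serines that can carry the sugar O-GlcNAc were replaced by alanine. The study used adenovirus for re-expression. The sources used here do not say whether the HepG2 cells were 1 clone or a pool, and no library of cells with their original VEZF1 was analysed here. The comparison asks which of these genes differ in RNA level between cells with wild-type VEZF1 and cells with the form that lacks these serines.

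Metallothioneins are small cysteine-rich proteins that bind zinc, copper and cadmium in the cytosol. When free zinc rises, MTF1 binds it through its zinc fingers, enters the nucleus and switches on genes whose promoters hold metal response elements, among them the metallothioneins and SLC30A1, which encodes the plasma membrane transporter that moves zinc out of the cell. In hepatocytes, metallothioneins are also induced by glucocorticoids and inflammatory cytokines, and they serve as the main store of readily exchanged zinc.

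On GRCh38, the positions in the table place the metallothionein genes in 1 cluster on chromosome 16, from MT2A (chr16:56608584-56609497) through MT1E (chr16:56625475-56627112), MT1M (chr16:56632659-56633981), MT1A (chr16:56638666-56640087), MT1F (chr16:56657731-56660698), MT1G (chr16:56666730-56668065) and MT1H (chr16:56669814-56671129) to MT1X (chr16:56682470-56684196). MT1G was on the minus strand and the others were on the plus strand. MTF1 (chr1:37809574-37859592) and SLC30A1 (chr1:211571568-211579161) were on the minus strand of chromosome 1. All 10 are annotated as protein-coding.

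The promoter sequences are shown because the metal response element is what links these genes to the zinc sensor. RefSeq promoter windows on GRCh38.p14 were matched for 5 of the 10 genes, MT2A, MT1H, MT1X, SLC30A1 and MTF1. MT1A, MT1E, MT1F, MT1G and MT1M had no window. Each sequence is given 5′ to 3′ on the strand of its gene and covers the 250 bases before the start site. Capitals mark the core of the metal response element, searched as TGCACNC or TGCGCNC on both strands. The lines are MT2A (chr16:56608334-56608583, plus strand), MT1H (chr16:56669564-56669813, plus strand), MT1X (chr16:56682220-56682469, plus strand) and SLC30A1 (chr1:211579162-211579411, minus strand).
MT2A: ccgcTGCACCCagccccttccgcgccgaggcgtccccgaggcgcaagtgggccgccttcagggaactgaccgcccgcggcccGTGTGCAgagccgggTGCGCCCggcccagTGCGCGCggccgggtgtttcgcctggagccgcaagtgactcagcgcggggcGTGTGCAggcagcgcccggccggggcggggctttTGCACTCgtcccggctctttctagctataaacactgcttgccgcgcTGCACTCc
MT1H: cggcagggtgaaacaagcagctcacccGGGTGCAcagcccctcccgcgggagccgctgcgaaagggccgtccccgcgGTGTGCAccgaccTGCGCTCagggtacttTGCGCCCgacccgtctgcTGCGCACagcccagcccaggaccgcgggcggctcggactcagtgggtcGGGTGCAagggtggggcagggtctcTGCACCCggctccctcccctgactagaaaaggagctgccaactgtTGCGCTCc
MT1X: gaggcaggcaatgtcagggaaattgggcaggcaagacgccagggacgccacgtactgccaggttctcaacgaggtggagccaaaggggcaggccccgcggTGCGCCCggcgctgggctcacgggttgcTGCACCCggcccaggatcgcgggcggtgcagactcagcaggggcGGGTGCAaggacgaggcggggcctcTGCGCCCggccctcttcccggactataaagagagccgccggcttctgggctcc
SLC30A1: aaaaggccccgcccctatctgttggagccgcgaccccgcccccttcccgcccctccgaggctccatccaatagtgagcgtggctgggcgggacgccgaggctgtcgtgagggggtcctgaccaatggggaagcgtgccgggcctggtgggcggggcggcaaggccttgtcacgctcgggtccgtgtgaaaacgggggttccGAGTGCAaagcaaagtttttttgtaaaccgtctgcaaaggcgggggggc
In the whole window, which also takes in the 50 bases after the start, MT2A and MT1H had 8 matches each, MT1X had 4 and SLC30A1 had 2. The 250 bases printed held 7 of the matches of MT2A, 8 of MT1H, 4 of MT1X and 1 of SLC30A1. Of 35116 RefSeq windows of 300 bases, 29.6% held at least 1 match, 8.6% at least 2, 0.601% at least 4 and 0.0199% at least 8. The window of MTF1 (chr1:37859543-37859842) had 0 matches. A run of 6 G on either strand, written GGGGGG, was found in 18.8% of windows; among the 5 genes it occurred in SLC30A1, as 2 overlapping matches in 1 stretch. None of these runs overlapped a metal response element. A match describes the letters and does not show that a factor was bound.

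The libraries differed in depth, from 28756765 to 57199396 counts per library. Levels are given as counts per 1000000 counts of the library (CPM) after scaling with edgeR's TMM factors. VEZF1 had 59.3, 45.6 and 40.0 CPM in the VEZF1-WT libraries 1, 2 and 3 and 46.2, 48.6 and 38.9 CPM in the VEZF1-2A libraries 1, 2 and 3. Its counts could not be divided between the silenced gene and the re-expressed one, so they check neither the silencing nor the form. All 10 HepG2 markers examined, such as AFP and ALB, were detected at a summed level of 15460 to 20540 CPM. Of 6 markers of blood, endothelial and fibroblast cells, CD68 held most of a summed 115.5 to 175.3 CPM in VEZF1-WT and 120.4 to 189.8 CPM in VEZF1-2A. PECAM1 had 59 to 132 counts in a library, COL1A1 had 24 to 58 and VWF had 8 to 32. PTPRC and COL1A2 were at or near 0, with at most 4 and 2 counts in a library.

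MT2A, the most broadly expressed metallothionein of human cells, carried nearly all metallothionein RNA. Its share of the summed metallothionein CPM was 95.2% to 96.5% across the 6 libraries. It had 423, 559.8 and 311 CPM in VEZF1-WT and 518, 561.5 and 299.5 CPM in VEZF1-2A, from 9928 to 22476 counts per library. The lowest library of each group was the one numbered 3, the highest was the one numbered 2, and the groups overlapped almost completely. The means were 431 ± 125 CPM (SD, n = 3) in VEZF1-WT and 459.7 ± 141 CPM (SD, n = 3) in VEZF1-2A. MT2A did not pass the test between the groups, with a log2 fold change (VEZF1-WT over VEZF1-2A) of -0.09 ± 0.23 (SE), a 95% interval of -0.61 to 0.42 and an adjusted p of 0.9996 by edgeR (quasi-likelihood test, Benjamini-Hochberg adjusted over 19111 genes). An exact permutation test over the libraries, two-sided, gave p = 0.9, where 3 libraries against 3 cannot give a p below 0.1. The labels do not say whether libraries came from separate cultures, so p-values measure the spread between these libraries, which may be technical. In bulk RNA, fewer cells that express a gene and less RNA per cell cannot be told apart.

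**Figure D1:**
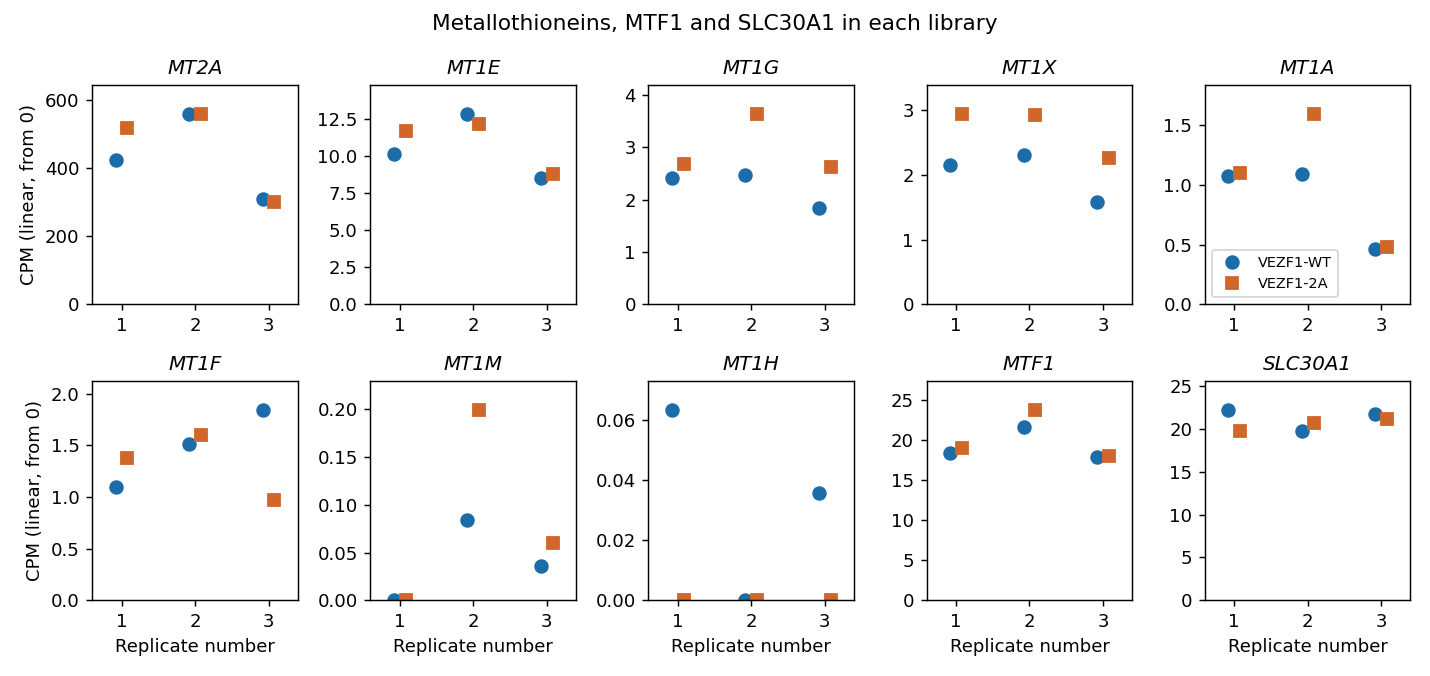
Level of each of the 10 genes in CPM (linear axes from 0, a separate scale in each panel) against the replicate number, with circles for VEZF1-WT and squares for VEZF1-2A, 1 point per library. MT2A, MT1E, MT1A and MTF1 were lowest in both libraries numbered 3, while SLC30A1 stayed between 19.8 and 22.3 CPM.

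MT1E, MT1A and MT1F, further members of the type 1 metallothioneins, were present at low level. MT1E, the next most abundant, had 10.2, 12.9 and 8.52 CPM in VEZF1-WT and 11.7, 12.2 and 8.81 CPM in VEZF1-2A. As for MT2A, both libraries numbered 3 were below the other 4, and the groups overlapped, with a log2 fold change of -0.06 ± 0.16 (SE) and a 95% interval of -0.42 to 0.30. MT1A had 1.08, 1.09 and 0.461 CPM in VEZF1-WT and 1.10, 1.60 and 0.483 CPM in VEZF1-2A, from 16 to 64 counts per library. Here too the libraries numbered 3 were the 2 lowest. The log2 fold change of MT1A was -0.32 ± 0.44 (SE), and its 95% interval of -1.30 to 0.66 was the widest of the 8 genes tested. MT1F had 1.10, 1.52 and 1.84 CPM in VEZF1-WT and 1.37, 1.60 and 0.965 CPM in VEZF1-2A. In MT1F the libraries numbered 3 were the highest of VEZF1-WT and the lowest of VEZF1-2A, and the log2 fold change was 0.18 ± 0.27 (SE).

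MT1G and MT1X stood lower in VEZF1-WT, but at a level that did not survive adjustment. MT1G, a metallothionein known to be silenced by promoter methylation in liver cancers, had 2.41, 2.47 and 1.84 CPM in VEZF1-WT and 2.68, 3.65 and 2.62 CPM in VEZF1-2A, from 78 to 146 counts per library. Every VEZF1-WT library was below every VEZF1-2A library. The log2 fold change was -0.43 ± 0.19 (SE), with a 95% interval of -0.86 to -0.0012, an unadjusted p of 0.0495 and an adjusted p of 0.9996 (edgeR's quasi-likelihood test), and the exact permutation test gave its smallest possible p, 0.1. MT1X had 2.15, 2.30 and 1.58 CPM in VEZF1-WT and 2.95, 2.92 and 2.26 CPM in VEZF1-2A, from 75 to 117 counts per library. The VEZF1-WT library numbered 2 was above the VEZF1-2A library numbered 3, so the groups overlapped, while VEZF1-WT was the lower library within each of the 3 numbers. The log2 fold change of MT1X was -0.44 ± 0.20 (SE), with a 95% interval of -0.88 to -0.0049, an unadjusted p of 0.0479 and an adjusted p of 0.9996 by the same edgeR test. Unadjusted p-values of MT1G and MT1X passed 0.05 by little. Scaling by library size alone gave 0.0541 and 0.0539, and DESeq2's test gave 0.0658 and 0.0656. Leaving out the VEZF1-WT library numbered 1 or 3, or the VEZF1-2A library numbered 2, took both genes above 0.05, and leaving out the VEZF1-2A library numbered 1 took MT1X above it, with p from 0.0326 to 0.241 for MT1G and from 0.022 to 0.177 for MT1X over the left-out libraries. Across all settings and left-out libraries the adjusted p of either gene lay between 0.914 and 1.

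The counts of MT1X may not be separable from those of an overlapping gene, since how shared reads were counted is not given. MT1X shares 321 bases of counted exon on the same strand with AC026461.1, a gene listed as a processed transcript in GENCODE release 29. AC026461.1 had 94, 78 and 77 counts in VEZF1-WT and 79, 102 and 71 counts in VEZF1-2A, beside 102, 82 and 89 and 86, 117 and 75 counts of MT1X. The 2 genes thus had nearly the same count in each library, and the log2 fold change of AC026461.1 was -0.43 ± 0.21 (SE), unadjusted p 0.0669 by edgeR's test. No other of the 10 genes overlapped another counted gene.

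MT1H and MT1M were at the limit of detection and were not tested. MT1H had 3, 0 and 2 counts in VEZF1-WT and 0 in each VEZF1-2A library. MT1M had 0, 3 and 2 counts in VEZF1-WT and 0, 8 and 2 counts in VEZF1-2A. A count of 0 allows up to 3 counts, or 0.0524 to 0.1043 CPM depending on the library, and this limit covers counting error only. MT1H, near 0 in HepG2, and MT2A, the most abundant, had the same number of metal response element cores in their promoter windows.

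MTF1, the zinc sensor itself, had 18.4, 21.5 and 17.8 CPM in VEZF1-WT and 19.0, 23.8 and 18.0 CPM in VEZF1-2A. Its libraries numbered 2 were the highest and those numbered 3 the lowest of each group. The groups overlapped, and the log2 fold change was -0.08 ± 0.12 (SE) with a 95% interval of -0.33 to 0.18. SLC30A1, the zinc exporter and a classical MTF1 target, had 22.3, 19.8 and 21.8 CPM in VEZF1-WT and 19.8, 20.7 and 21.2 CPM in VEZF1-2A. It varied least of the 8 genes tested, with a log2 fold change of 0.05 ± 0.08 (SE). Its 95% interval of -0.12 to 0.22 was also the narrowest of the 8.

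Of the 10 genes, 8 had enough counts to be tested, and 0 had an adjusted p under 0.05, against 0% of all 19111 genes tested. DESeq2's test also gave 0, with 0 of the 8 at an unadjusted p under 0.05. By edgeR, MT1G and MT1X made 2 of 8 at an unadjusted p under 0.05, against 2.13% of all genes in either direction and 1.3% lower in VEZF1-WT. Only MT1G of the 8 had groups that did not overlap, against 7.36% of all genes. A negative log2 fold change was found in 5 of the 6 tested metallothioneins, with a median of -0.20 over the 6 and a median of 0.00 over all genes tested. Metallothionein genes share stretches of sequence with each other and with further genes, so reads may have been placed on the wrong gene. In GENCODE release 29 transcripts, the share of 50-base stretches found also in another gene was 3.02% for MT2A, 7.1% for MT1E, 16.5% for MT1G and 18.3% for MT1X. Of the 341 such stretches of MT1X, 273 were shared with the overlapping AC026461.1. Summed over the 8 metallothioneins, which keeps reads misplaced among these 8 but not those placed on pseudogenes or AC026461.1, the VEZF1-WT libraries had 440.4, 580.1 and 325 CPM and the VEZF1-2A libraries 538, 584 and 315 CPM. The sum overlapped between the groups, with means of 449 ± 128 and 479 ± 144 CPM (SD, n = 3).

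**Figure D2:**
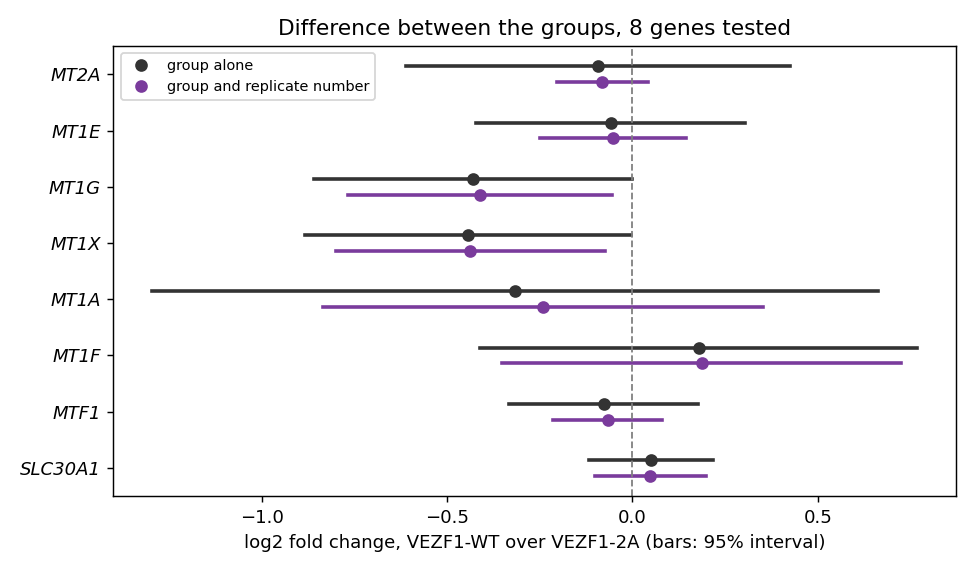
Log2 fold change of the 8 tested genes, VEZF1-WT over VEZF1-2A, as points with 95% intervals, for the fit on the group alone (black) and the fit on the group and the replicate number (purple). The intervals of MT1G and MT1X lie below 0 in both fits, and the interval of MT2A narrows from -0.61 to 0.42 on the group alone to -0.20 to 0.04 with the number.

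MT2A differed with the replicate number, while it did not pass the test between the forms of VEZF1. Deviations from the group means of libraries that share a number had correlations of 0.202, 0.325 and 0.703 for the numbers 1, 2 and 3 over 11068 genes. Number 3 alone stood out from the other pairings. The VEZF1-WT library numbered 2 correlated with the VEZF1-2A library numbered 1 at 0.535, above the same-number values of 1 and 2. Pairing the libraries numbered 1 and those numbered 2 is thus an assumption of the block and of the differences within numbers. With the number kept as a block, MT2A had a log2 fold change of -0.08 ± 0.06 (SE) between the groups and a 95% interval of -0.20 to 0.04, narrower than without the block. In the blocked edgeR fit 0 of the 8 genes had an adjusted p under 0.05, against 0.0314% of all genes. MT1G and MT1X were again the 2 of 8 with an unadjusted p under 0.05, against 4.32% of all genes and 2.52% lower in VEZF1-WT. Within the numbers 1, 2 and 3, the log2 difference between VEZF1-WT and VEZF1-2A was -0.29, 0.00 and 0.05 for MT2A and -0.15, -0.54 and -0.49 for MT1G.

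A test of the replicate number itself was chosen after the values of MT2A were seen. It asks for any difference among the numbers and not for number 3 against the others. MT2A in libraries numbered 3 was lower by a log2 difference of -0.62 against number 1 and -0.88 against number 2. The joint test gave MT2A an adjusted p of 2.51e-06 (edgeR's quasi-likelihood test), which ranked 17 among the 19111 genes. In the alternatives with all 6 libraries and the filter on low counts, DESeq2's test included, this adjusted p lay between 5.66e-07 and 2.29e-06. Without the filter it was 1.05e-53. With 1 library left out MT2A was still called, although 1 of the numbers then rested on 1 library. An adjusted p under 0.05 for the number was found in 4 of the 8 tested genes, MT2A, MT1E (0.0219), MT1A (0.0366) and MTF1 (0.042), against 5.52% of all genes. The log2 difference between number 3 and number 1 was -0.33 for MT1E, -1.20 for MT1A and -0.06 for MTF1, whose difference between numbers 3 and 2 was -0.34. SLC30A1 did not pass this test (adjusted p 0.843), with log2 differences of -0.06 between numbers 2 and 1 and 0.03 between numbers 3 and 1. MT1G (0.419), MT1X (0.374) and MT1F (0.796) did not pass either. The calls of MT1E, MT1A and MTF1 were less firm than that of MT2A. DESeq2's test called MT2A alone, but it gave MT1A no adjusted p (unadjusted p 0.0146). Leaving out the VEZF1-WT library numbered 2 or 3, or the VEZF1-2A library numbered 3, left MT2A alone as well. Without the VEZF1-2A library numbered 2, MT1E and MT2A were called. Some markers moved with the number too. Of the 10 HepG2 markers, 5 had an adjusted p under 0.05 for the number, against 5.52% of all genes. Among those 5, AFP and FGB were higher in both libraries numbered 3, by log2 differences of 0.95 and 0.92 against number 1. ALB (0.18) and HNF4A (0.08) did not pass. Of the 4 tested markers of other cells 2 passed, PECAM1 and CD68, with log2 differences of -0.92 and -0.43 between numbers 3 and 1. Of 12 proliferation markers, 7 also had an adjusted p under 0.05 for the number. The median log2 difference of the 12 was -0.14 between numbers 2 and 1 and 0.11 between numbers 3 and 1. VEZF1 was lowest in both libraries numbered 3 (adjusted p 0.0175). The part of these in the levels of the metallothioneins was not tested, and the labels do not say what the numbers stand for.

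Divided by exonic length, the 10 genes spanned a wide range of levels in HepG2. MT2A stood at a mean of 487.5 CPM per kilobase (328 to 614 over the 6 libraries), and MT1E followed at 10.2 (8.10 to 12.2), without overlap. SLC30A1 (3.55 CPM per kilobase) and MT1G (3.48) did not differ beyond their spread, nor did MTF1 (2.47) and MT1A (2.45). MT1G was above MTF1 within each of the 6 libraries, although their ranges over libraries overlapped. MT1X had 1.37 CPM per kilobase and MT1F 0.756, with MT1X above MT1F in 5 of the 6 libraries. This order depends on the annotated exonic lengths, 396 bases for MT1A, 1727 for MT1X and 1852 for MT1F. In CPM alone, MT1X was above MT1A in each library. MT1M (0.124) and MT1H (0.0228) lay at the bottom, near the limit that a count of 0 allows.

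**Figure D3:**
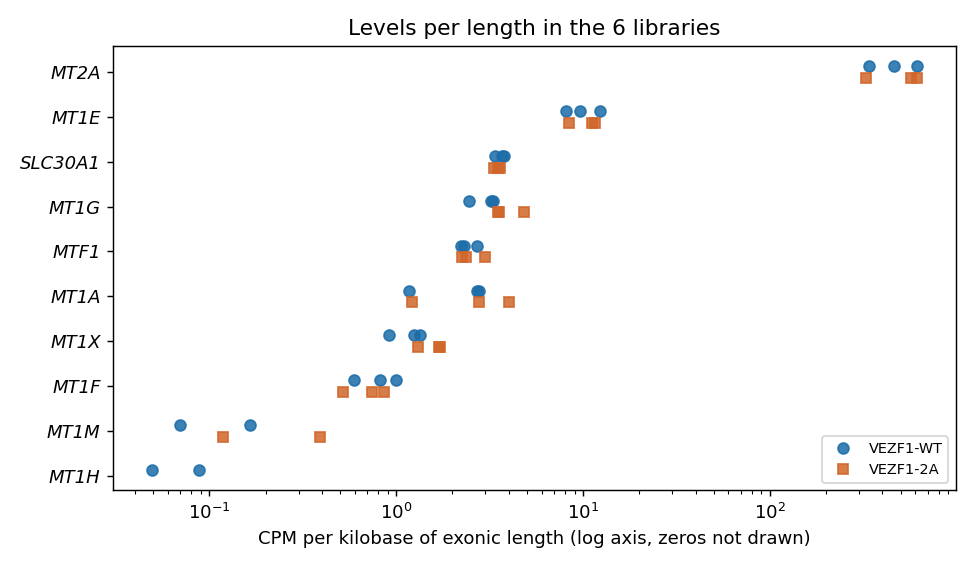
Level of each gene in CPM per kilobase of exonic length on a log axis, 1 point per library, circles for VEZF1-WT and squares for VEZF1-2A, with libraries at 0 not drawn. MT2A at 328 to 614 stands far above MT1E at 8.10 to 12.2, and the points of the groups interleave in MT2A, MT1E and SLC30A1.

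Related genes of metal handling were described from lists. No gene of these lists passed an adjusted p of 0.05 between the groups (edgeR's quasi-likelihood test). An unadjusted p under 0.05 was found in 0 of them, against 2.13% of all genes. With the replicate block, CP (unadjusted p 0.0287), TSC22D3 (0.0434) and SLC39A13 (0.0412) were under 0.05 by the same test, with adjusted p of 0.9993 each. They were 1 of 10 copper handling, 1 of 7 glucocorticoid-responsive and 1 of 12 SLC39 genes tested, against 4.32% of all genes with the block. Of 13 other metallothionein genes and pseudogenes listed, 12 were in the table and 1, MT2P1, had enough counts to be tested. Of 9 further SLC30 genes, a family most of whose members move zinc out of the cytosol, 5 were tested. They were led by SLC30A9, SLC30A5 and SLC30A6 at 6.85, 2.94 and 1.67 CPM per kilobase. The median log2 fold change of the 5 was -0.07. Of 14 SLC39 genes, the family that moves zinc into the cytosol, 12 were tested with a median of 0.01, and SLC39A7, SLC39A14 and SLC39A1 led at 128, 19.5 and 14.1 CPM per kilobase. Among 10 copper handling genes, led by SOD1, COX17 and CP, 5 log2 fold changes were negative and 5 positive. The 10 genes of metal and oxidant stress, led by HSPA1B, DNAJB1 and HSPA1A, had a median of -0.06, and 7 tested glucocorticoid-responsive genes, led by DUSP1, FKBP5 and KLF9, had a median of 0.00.

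Some zinc transporters and stress genes also followed the replicate number, in both directions. SLC39A14, a plasma membrane importer of zinc and iron, had 125, 119.9 and 176 CPM in VEZF1-WT and 107, 130 and 154 CPM in VEZF1-2A, highest in both libraries numbered 3 where MT2A was lowest (adjusted p for the number 0.000604 by edgeR's test). SLC39A7, which releases zinc from the endoplasmic reticulum, had 353, 331 and 415 CPM in VEZF1-WT and 328, 338 and 424 CPM in VEZF1-2A, again highest at number 3 (0.0026). SLC39A5 and SLC30A5 were also highest at number 3, with adjusted p of 0.0333 and 0.0418. In all, 3 of 12 tested SLC39 genes and 1 of 5 SLC30 genes were called for the number, against 5.52% of all genes.

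Among the stress genes, 3 of 10 were called, against 5.52% of all genes, and were lowest at number 3, as MT2A was. SLC40A1, the iron exporter ferroportin and itself a target of MTF1, had 29.1, 33.9 and 20.2 CPM in VEZF1-WT and 32.0, 36.4 and 20.4 CPM in VEZF1-2A (adjusted p for the number 1.41e-05 by edgeR's test). SLC7A11, the cystine importer, and TXNRD1, thioredoxin reductase, had log2 differences of -0.39 and -0.28 between numbers 3 and 1. Of the copper handling and glucocorticoid-responsive genes, 0 had an adjusted p under 0.05 for the number. HSPA1A, a heat shock gene, stayed between 140.1 and 154.5 CPM in the 6 libraries.

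**Figure D4:**
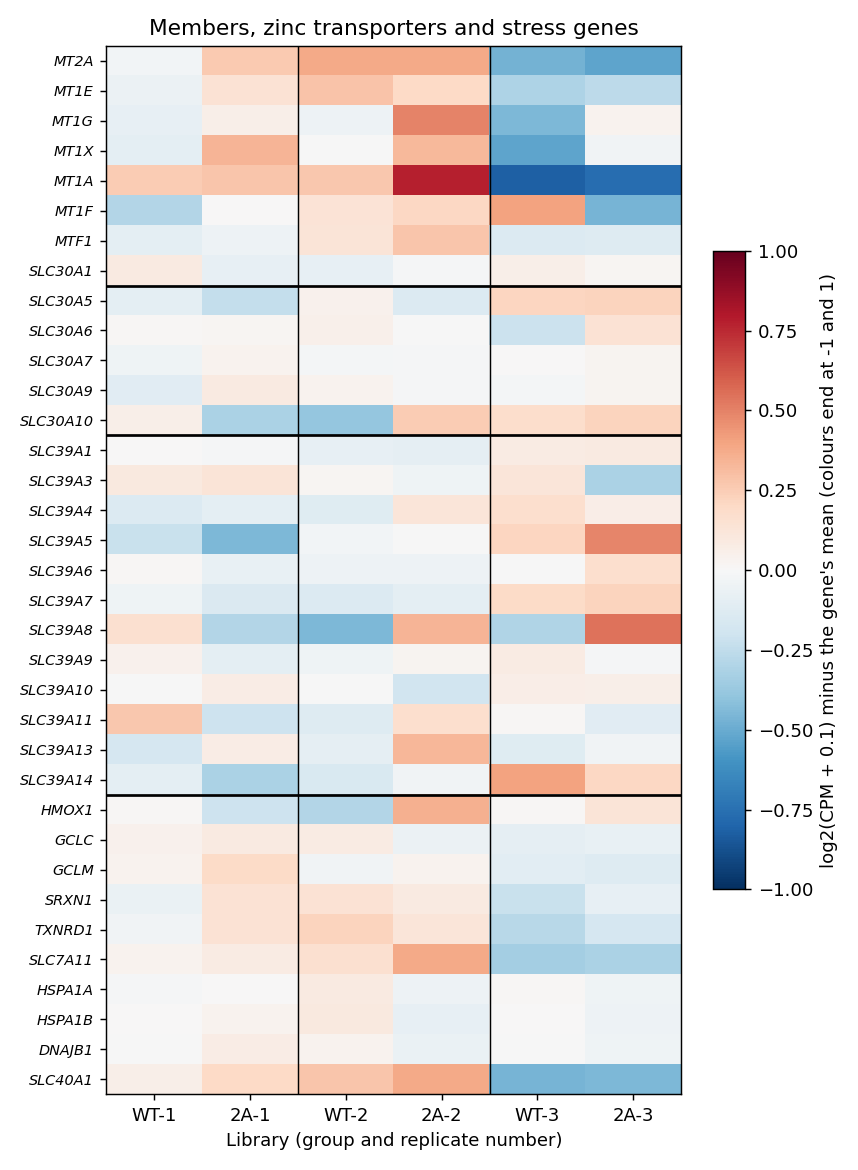
Log2(CPM + 0.1) of 35 genes minus each gene's mean over the 6 libraries, with libraries in columns paired by number and genes in blocks for the 8 tested members, SLC30 exporters, SLC39 importers and stress genes. The columns numbered 3 are blue for MT2A, MT1E, MT1A and SLC40A1 and red for SLC39A7 and SLC39A14 in both groups, with values from -0.82 to 0.78.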

How the data were processed

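RNA of HepG2 cells was measured in 6 libraries, and groups and replicate numbers were taken from the sample titles. A column kit was used for extraction and an mRNA kit for the libraries. The authors deposited 1 table of whole-number read counts per gene, without normalization, with gene positions and exonic lengths on GRCh38. The aligner, counting program, strand setting and annotation are not given in the sources used here, and 3 of the 10 genes had the same start and end as in GENCODE release 29. Of 59613 lines, 5 were left out because 1 gene's entry was broken. Of 54 member counts above 0, 37 were even, so counts may not be independent.

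The members and the lists were chosen with earlier results of these data known. The counts were fitted by edgeR 4.0.16 under R 4.3.3 (filterByExpr, minimum count 10 and total 15, TMM, glmQLFit and glmQLFTest, two-sided, Benjamini-Hochberg over 19111 genes), with the group as covariate. CPM plus 0.1 was used on the log2 scale for permutation tests, correlations and within-number differences. Replicate numbers were taken to pair the libraries by a rule, a correlation of same-numbered deviations above 0.1 at each number. Deviations within a group sum to 0, so the pair numbered 3 can by itself raise the correlations among the other libraries. VEZF1-WT 2 with VEZF1-2A 1 (0.535) was above the same-number values of 1 and 2. The rule thus does not show that libraries 1 and 2 pair by number. No within-group pair of libraries was a copy. Alternatives were DESeq2 1.42.0 size factors and test, library size alone, no filter, halved counts, the replicate block and each library left out. The test of the replicate number and leaving out both libraries numbered 3 were added after seeing the data. Named genes are the members, the 3 most abundant tested genes of each pathway list or those with an unadjusted p under 0.05, and the 5 genes most like the summed metallothioneins. Genes named for the replicate number or the block, AC026461.1 and HSPA1A's level were chosen after their values were seen. Promoter windows were those of RefSeq on GRCh38.p14. The edgeR steps were tested on simulated data. Figures were drawn with matplotlib 3.10.9.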

Additional observations from a re-analysis of the deposited data

How the results depend on the processing

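An adjusted p under 0.05 between the groups was reached by 0 members in every setting run. The count of members at an unadjusted p under 0.05, 2 in the fit reported, was 1 (MT1X) with DESeq2 size factors, 0 with library size alone, 0 with DESeq2's test, 0 without both libraries numbered 3 and between 0 and 2 with 1 library left out; the replicate block kept it at 2. The count of members called for the replicate number, 4, was 1 (MT2A) with DESeq2's test, which gave MT1A no adjusted p. It was between 1 and 4 with 1 library left out. With 1 library left out, the median log2 fold change of the tested metallothioneins ranged from -0.42 (without the VEZF1-2A library numbered 3) to 0.055 (without the VEZF1-2A library numbered 2), and the difference in their summed level from -113 to 31.0 CPM around -30.2. The log2 fold change then ranged from -0.33 to 0.095 for MT2A, -0.22 to 0.076 for MT1E, -0.67 to 0.14 for MT1A, -0.026 to 0.36 for MT1F and -0.16 to 0.057 for MTF1, while MT1G (-0.52 to -0.25), MT1X (-0.56 to -0.29) and SLC30A1 (0.01 to 0.10) kept their sign. Without both libraries numbered 3, MT1F turned from 0.18 to -0.21. With the replicate block the median was -0.16. The cause of these changes was not tested. Over the whole table, the calls at an adjusted p under 0.05 were 0 in the fit reported, 3 with DESeq2's test, 6 with the replicate block, 16 of 38745 genes without the filter and 4 without both libraries numbered 3. Those at an unadjusted p under 0.05 were 408, 219, 825, 896 and 833 in the same order, and 973 without the VEZF1-2A library numbered 3. MT1A, MT1F, MT1G and MT1X had at most 146 counts in a library, while MT2A, with at least 9928, had an SE of 0.23, above the 0.19 of MT1G and the 0.20 of MT1X.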

Other observations

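The genes whose levels were most like the summed metallothionein level over the 6 libraries, among 11068 genes with a mean of at least 5 CPM, were TEP1, RUNX1, LAIR2, BAHD1 and OTUB2. Their Pearson correlations with it were 0.999, 0.998, 0.997, 0.996 and 0.995, on the log2 scale. The points of these correlations share the libraries and their depth, and 6 points are few for a search over so many genes. LAIR2, which encodes a secreted collagen-binding receptor, had the widest range of the 5, with 5.28, 8.39 and 2.64 CPM in VEZF1-WT and 7.10, 9.32 and 2.50 CPM in VEZF1-2A. TEP1, which encodes a telomerase-associated protein, moved much less, with 21.2, 23.8 and 18.6 CPM in VEZF1-WT and 22.7, 23.5 and 18.4 CPM in VEZF1-2A. All 5 genes were lowest in both libraries numbered 3, as was the sum they were picked to resemble, so this follows from the choice. Among the members, the same correlation was 0.985 for MT1E, 0.941 for MT1A, 0.799 for MTF1, 0.728 for MT1X, 0.613 for MT1G, 0.285 for MT1F and -0.67 for SLC30A1, and MT2A makes up nearly all of the sum itself.

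SLC39A13, a zinc transporter of the Golgi, had 5.70, 6.04 and 5.91 CPM in VEZF1-WT and 6.76, 8.09 and 6.27 CPM in VEZF1-2A. It alone of the 12 tested SLC39 genes had groups that did not overlap, against 7.36% of all genes, with an unadjusted p of 0.0536 by edgeR's quasi-likelihood test and 0.0412 with the replicate block, and it was named after its values were seen.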
